A study of Mus musculus with 12 samples.

Results

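The genes of sterol and lipid synthesis that the SREBP transcription factors govern, together with genes that carry and store sterols, were followed in fetal mouse gonads in which the granulosa cell factor FOXL2 had been switched on in XY embryos. A list of 42 genes was taken by symbol, and 36 of them had an array row of their own among 30701 named genes and 65956 transcript clusters, the array's units of 1 locus each. Srebf1, Tm7sf2 and Scd2 lie in clusters that the annotation assigns to several genes, and Nr1h2, Acat2 and Soat1 had no cluster named for them in the annotation used. The RNA of these 6 genes was therefore not analysed here. No filter on low signal was applied, and all 36 genes averaged above the median of all clusters.

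XY FOXL2+ gonads carried Sf1-cre+/Tg together with the allele Rosa26-CAG-LSL-Foxl2+/f, whereas XX control and XY control gonads were Rosa26+/+ with the same Sf1-Cre+/Tg transgene, so Cre was present in every group. In this cross Cre removes a stop cassette ahead of Foxl2, which the ubiquitous CAG promoter then drives. The recombination is limited to cells that have used the Sf1 promoter, such as the somatic cells of the gonad, and their descendants. Embryos were taken at 14.5 days post coitum on a mixed 129Sv and C57Bl/6J background, with 4 arrays a group and 1 gonad pair an array. RNA was read on the Affymetrix Mouse Transcriptome Array 1.0, and all values below are log2 signals or differences between them.

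Cells make cholesterol from acetyl-CoA through mevalonate, farnesyl diphosphate and squalene. When membrane sterol is low, SCAP escorts the SREBP precursors to the Golgi, where proteases free the active factors, and INSIG proteins hold the complex back when sterol is plentiful. SREBP2 mainly drives sterol synthesis and uptake and SREBP1 fatty acid synthesis, while the liver X receptors answer to oxysterols. Cholesterol is also the raw material of steroid hormones, and the fetal Leydig cells of the testis turn it into androgens.

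The stretches around the annotated start sites are shown for 3 enzymes whose RNA fell and for Ggps1, whose change did not pass, because they let the shared CCAAT letters be seen. They are RefSeq promoter windows of GRCm38.p6, 250 bases before to 50 bases after the start, 5′ to 3′ in the direction of the gene. Capitals mark CCAAT, a motif of the factor NF-Y, on either strand, and in Hmgcs1 also the sterol regulatory element TCACNCCAC.
Hmgcs1 (chr13:119690101-119690400, plus strand): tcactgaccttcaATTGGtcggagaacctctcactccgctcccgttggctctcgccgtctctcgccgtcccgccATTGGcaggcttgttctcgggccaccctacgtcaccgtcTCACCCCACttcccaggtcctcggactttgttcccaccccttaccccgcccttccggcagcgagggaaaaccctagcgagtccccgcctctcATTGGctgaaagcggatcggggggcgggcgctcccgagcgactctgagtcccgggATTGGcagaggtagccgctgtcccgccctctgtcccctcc
Lss (chr10:76531355-76531654, plus strand): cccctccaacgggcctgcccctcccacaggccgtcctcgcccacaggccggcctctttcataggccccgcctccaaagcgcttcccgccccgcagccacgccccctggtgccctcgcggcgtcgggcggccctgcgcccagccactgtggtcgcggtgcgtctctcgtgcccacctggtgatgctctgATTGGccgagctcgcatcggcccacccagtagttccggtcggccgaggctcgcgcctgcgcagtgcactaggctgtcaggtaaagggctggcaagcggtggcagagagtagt
Msmo1 (chr8:64733529-64733828, minus strand): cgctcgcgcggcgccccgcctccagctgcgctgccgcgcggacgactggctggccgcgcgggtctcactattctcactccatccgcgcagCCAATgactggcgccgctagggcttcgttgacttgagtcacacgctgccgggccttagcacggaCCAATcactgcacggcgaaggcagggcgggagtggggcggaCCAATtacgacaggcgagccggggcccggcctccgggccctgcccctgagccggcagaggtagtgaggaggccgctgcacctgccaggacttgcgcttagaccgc
Ggps1 (chr13:14063439-14063738, minus strand): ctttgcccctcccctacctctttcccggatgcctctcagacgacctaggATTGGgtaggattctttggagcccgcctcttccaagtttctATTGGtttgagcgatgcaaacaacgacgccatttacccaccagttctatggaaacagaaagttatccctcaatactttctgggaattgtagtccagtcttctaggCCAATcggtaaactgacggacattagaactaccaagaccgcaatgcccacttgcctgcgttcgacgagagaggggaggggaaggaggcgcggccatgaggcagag

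Promoter windows were found for 33 of the 42 genes. The counts below include Acat2, Tm7sf2, Srebf1, Nr1h2 and Soat1, whose RNA was not analysed. CCAAT was present on either strand in at least 1 window of 15 of 16 sterol synthesis genes, 3 of 7 genes of fatty acid and lipid synthesis, 4 of 7 regulators and 3 of 3 genes of sterol transport and storage, against 41.1% of all 27025 genes with a window. Ggps1 and Insig2, whose changes did not pass, held 3 CCAAT matches each in a single window. The GC box GGGCGG, a motif of Sp1, was found on either strand in 14 of the 16 sterol synthesis genes, 3 of 7 fatty acid and lipid genes, 5 of 7 regulators and 3 of 3 transport genes, against 38.2% of all genes. The letters TCACNCCAC were found on either strand in Hmgcs1 alone among the 33 genes, at position -137 from its start site, and in 1.44% of all genes. No match overlapped a match of another motif in the windows shown. These counts describe letters in short windows, and genes with several windows had more chances of a match.

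Foxl2 read 7.67, 8.62, 7.18 and 6.72 in XY FOXL2+ gonads, 8.08, 7.30, 7.14 and 7.39 in XX control gonads and 5.07, 5.55, 5.44 and 5.33 in XY control gonads, and was higher in XY FOXL2+ than in XY control by 2.20 (SE 0.33, adjusted p = 0.00122). Y-linked genes and Xist matched the labels on all 12 arrays. Xist should be silent in XY gonads but averaged 6.845 in XY FOXL2+ and 7.073 in XY control, so the level of a silent gene differs between clusters. Other genes that should be silent, such as Uty and Kdm5d in XX control gonads, averaged 6.24 and 6.27, so signals near 6 or below cannot be told from background. Foxl2 lay below that level in XY control gonads, so its difference is a minimum. Among the 36 genes Nr1h3 read near that level in every group, and Ebp in XY FOXL2+ and XX control gonads. Of the gonadal cell types, the marker means of fetal Leydig, Sertoli and granulosa cells differed between groups, as given below. Of 4 fat cell markers, adiponectin (Adipoq), Fabp4 and leptin (Lep) averaged between 4.91 and 5.27 in every group, below the level of those silent genes, and Plin1 averaged 6.75 in XY FOXL2+, 6.87 in XX control and 7.99 in XY control gonads.

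In XY FOXL2+ gonads the RNA of nearly the whole cholesterol pathway was lower than in XY control gonads, with exceptions named below. Of the 17 listed enzymes of sterol synthesis that were measured, 16 passed the test, all of them lower, with a median log2 change of -1.71 over the 17, whereas 6 of 9 fatty acid and lipid synthesis genes fell (median -1.36) and the 5 genes of sterol transport and storage were split, with 2 lower and 1 higher (median -0.11). In all, 27 of the 36 genes were lower and 1 was higher at an adjusted p under 0.05 (limma, Benjamini-Hochberg). Among all 65956 clusters 7.12% were called, 4.67% lower and 2.46% higher, and their median change was 0.003. On 27 genes every XY FOXL2+ array lay below every XY control array and on 1 gene above, against 6.97% and 5.23% of all clusters. In tissue RNA, fewer cells of a type and less RNA per cell cannot be told apart.

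The 6 enzymes from acetyl-CoA to farnesyl diphosphate fell, with changes between -2.51 and -0.81. Fdps, which makes farnesyl diphosphate, read 10.97, 10.69, 10.18 and 10.22 in XY FOXL2+ gonads, 10.42, 10.66, 10.76 and 10.50 in XX control gonads, and 13.07, 13.09, 13.23 and 12.71 in XY control gonads. Every XY FOXL2+ array was below every XY control array and overlapped the XX range, and the change from XY control was -2.51 (SE 0.17, adjusted p = 2.14e-06), a 5.69-fold lower signal. Hmgcs1, the cytosolic HMG-CoA synthase, read 13.53, 13.90, 13.06 and 13.08 in XY FOXL2+ gonads, 14.04, 14.30, 14.04 and 14.05 in XX control gonads, and 15.26, 15.16, 15.42 and 15.22 in XY control gonads. The 3 groups did not overlap, XY FOXL2+ was the lowest, and the change from XY control was -1.87 (SE 0.16, adjusted p = 1.33e-05). Idi1, which isomerises isopentenyl diphosphate, read 11.17, 11.05, 10.63 and 10.63 in XY FOXL2+ gonads, 10.93, 11.40, 11.23 and 11.02 in XX control gonads, and 12.63, 12.37, 12.75 and 12.56 in XY control gonads. XY FOXL2+ was again below XY control on every array and overlapped XX control, with a change of -1.71 (SE 0.15, adjusted p = 1.46e-05). Mvd, which decarboxylates mevalonate diphosphate, changed by -1.69 (SE 0.12, adjusted p = 2.63e-06), the mevalonate kinase Mvk by -1.25 (SE 0.10, adjusted p = 7.77e-06) and the phosphomevalonate kinase Pmvk by -0.81 (SE 0.12, adjusted p = 0.000892). Ggps1, which leads farnesyl diphosphate away from sterols to geranylgeranyl diphosphate, was the 1 enzyme that did not pass, with 10.43 ± 0.10 in XY FOXL2+ against 10.45 ± 0.07 in XY control (SD, n = 4) and an adjusted p of 0.939.

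All 10 listed enzymes measured from squalene synthesis to cholesterol fell, with changes between -2.89 and -1.09, whereas the sterol reductase Lbr, which acts in the same stretch and was not on the list, did not pass (0.22, adjusted p = 0.626). Lss, which closes squalene epoxide into lanosterol, read 8.77, 8.56, 8.33 and 8.23 in XY FOXL2+ gonads, 8.40, 8.57, 8.51 and 8.36 in XX control gonads, and 11.46, 10.99, 11.60 and 11.43 in XY control gonads. The XY FOXL2+ and XX arrays shared a range well below XY control, and the change was -2.89 (SE 0.14, adjusted p = 1.26e-07), 7.44-fold lower. Msmo1, which starts the removal of the methyl groups at carbon 4 of the sterol ring, read 8.71, 8.56, 8.50 and 8.53 in XY FOXL2+ gonads, 8.46, 8.48, 8.35 and 8.34 in XX control gonads, and 11.10, 10.71, 11.14 and 10.82 in XY control gonads. All XY FOXL2+ arrays were below XY control but slightly above all XX arrays, and the change from XY control was -2.37 (SE 0.11, adjusted p = 6.4e-08). Hsd17b7, which reduces the keto group left by that removal and can also reduce estrone, read 8.85, 9.0, 8.09 and 8.16 in XY FOXL2+ gonads, 8.66, 8.78, 8.51 and 8.58 in XX control gonads, and 10.69, 10.70, 11.11 and 10.92 in XY control gonads. Its XY FOXL2+ replicates 3 and 4 were the lowest of all 12 arrays, and the change was -2.33 (SE 0.19, adjusted p = 8.54e-06). The lanosterol demethylase Cyp51 changed by -2.30 (SE 0.14, adjusted p = 5.93e-07), Nsdhl, the decarboxylase of the methyl group removal, by -2.21 (SE 0.13, adjusted p = 4.6e-07), and Dhcr7, the reductase of the last step, by -1.97 (SE 0.11, adjusted p = 2.91e-07). The squalene epoxidase Sqle changed by -1.59 (SE 0.12, adjusted p = 5.02e-06), the squalene synthase Fdft1 by -1.43 (SE 0.10, adjusted p = 2.95e-06), the desaturase Sc5d by -1.26 (SE 0.12, adjusted p = 3.53e-05) and the sterol isomerase Ebp by -1.09 (SE 0.14, adjusted p = 0.000301). With Ebp near background in XY FOXL2+ gonads, its change is a minimum. The plot of sterol enzymes by array shows these values.

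**Figure D1:**
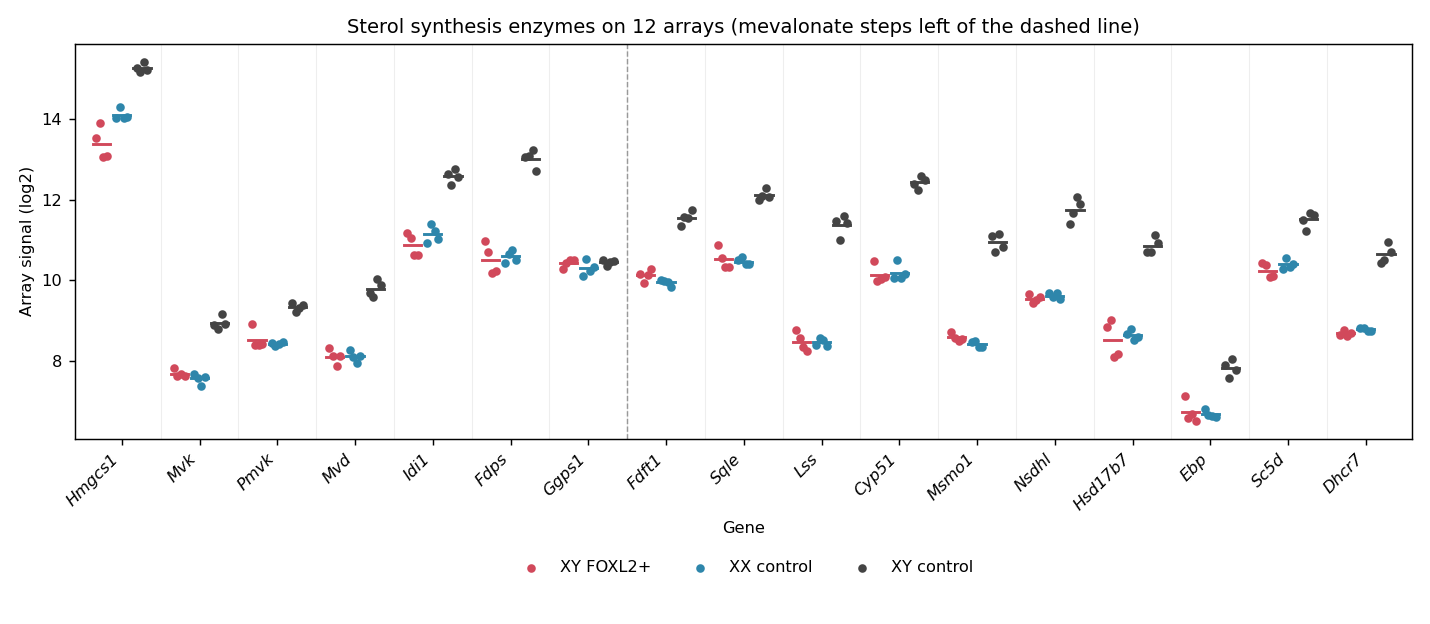
Array signal (log2, vertical axis) of 17 sterol synthesis enzymes, with 4 arrays a group as points and the group mean as a bar, for XY FOXL2+, XX control and XY control from left to right. For 16 of them all XY FOXL2+ points lie below all XY control points, and for Ggps1 the groups overlap.

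Among the regulators, 3 of 5 fell and 2 did not pass. Srebf2, which encodes SREBP2 and is itself a target of it, read 10.71, 10.55, 10.42 and 10.45 in XY FOXL2+ gonads, 10.49, 10.63, 10.54 and 10.51 in XX control gonads, and 11.67, 11.76, 11.77 and 11.78 in XY control gonads. XY FOXL2+ and XX arrays overlapped far below XY control, and the change was -1.21 (SE 0.09, adjusted p = 2.55e-06). Insig1, a retention protein and known SREBP target, read 10.27, 10.14, 9.99 and 10.02 in XY FOXL2+ gonads, 10.16, 10.36, 10.18 and 10.12 in XX control gonads, and 11.68, 11.56, 11.88 and 11.90 in XY control gonads. Its XY FOXL2+ and XX arrays overlapped each other and lay below every XY control array, and the change was -1.65 (SE 0.10, adjusted p = 8.95e-07). Scap, which encodes the escort of SREBP, read 10.19, 10.72, 10.53 and 10.50 in XY FOXL2+ gonads, 10.93, 10.90, 10.82 and 10.76 in XX control gonads, and 11.41, 11.19, 11.51 and 11.42 in XY control gonads. The 3 groups did not overlap, XY FOXL2+ was the lowest, and the change from XY control was -0.90 (SE 0.11, adjusted p = 0.000359). Insig2, the second retention protein, read 9.20, 9.33, 9.23 and 9.09 in XY FOXL2+ gonads, 9.35, 9.41, 9.25 and 9.26 in XX control gonads, and 9.17, 9.13, 9.20 and 9.13 in XY control gonads. The XY FOXL2+ range overlapped both others, and the difference from XY control was 0.05 (SE 0.08, adjusted p = 0.772). Nr1h3, the liver X receptor alpha, read 6.56, 6.58, 6.63 and 6.70 in XY FOXL2+ gonads, 6.67, 6.60, 6.59 and 6.61 in XX control gonads, and 6.45, 6.56, 6.42 and 6.31 in XY control gonads. Its XY FOXL2+ and XX ranges overlapped, and the difference from XY control of 0.18 (SE 0.07, adjusted p = 0.161) did not pass at a signal near background.

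Fatty acid genes were split by enzyme. Scd1, a stearoyl-CoA desaturase, read 10.74, 9.72, 8.63 and 8.45 in XY FOXL2+ gonads, 10.25, 10.16, 10.10 and 10.10 in XX control gonads, and 11.62, 11.80, 12.55 and 11.94 in XY control gonads. XY FOXL2+ replicates 3 and 4 lay below every other array and replicate 1 above all XX arrays, and the change from XY control was -2.59 (SE 0.40, adjusted p = 0.0015). A second cluster named Scd1 averaged 5.01 over the 12 arrays, below the level of silent genes, and its change did not pass (-0.59, adjusted p = 0.229). Probes for Scd1 may also take up RNA of its close paralogue Scd2, which was not analysed here. Fads2, the delta-6 desaturase of long fatty acids, read 13.13, 13.04, 12.77 and 12.50 in XY FOXL2+ gonads, 13.17, 13.11, 12.95 and 12.97 in XX control gonads, and 15.07, 15.01, 15.43 and 15.0 in XY control gonads. No XY FOXL2+ array reached the XY control range, and the change was -2.27 (SE 0.14, adjusted p = 7.88e-07). Fads1, the delta-5 desaturase, read 13.21, 13.0, 13.14 and 13.03 in XY FOXL2+ gonads, 13.19, 13.04, 12.89 and 12.97 in XX control gonads, and 14.64, 14.53, 14.90 and 14.55 in XY control gonads. It was below XY control on all XY FOXL2+ arrays too, with a change of -1.56 (SE 0.10, adjusted p = 1.17e-06).

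Of the enzymes that make the fatty acid chain, Acly, which supplies cytosolic acetyl-CoA from citrate, changed by -1.46 (SE 0.09, adjusted p = 9.65e-07), the elongase Elovl6 by -1.36 (SE 0.10, adjusted p = 5.77e-06) and the fatty acid synthase Fasn by -0.67 (SE 0.09, adjusted p = 0.000495). Acaca, the carboxylase that commits acetyl-CoA to fatty acids, did not pass, with 11.60 ± 0.23 in XY FOXL2+ against 11.64 ± 0.18 in XY control and a 95% interval of the difference of -0.30 to 0.23. Acss2, which makes acetyl-CoA from acetate, averaged 7.75 ± 0.32 in XY FOXL2+ against 7.89 ± 0.18 in XY control, with an interval of -0.47 to 0.17. Lpin1, a phosphatidate phosphatase, averaged 8.59 ± 0.37 against 8.28 ± 0.23 in the same order (SD, n = 4 each), with an interval of -0.04 to 0.67. The falls of all 6 fatty acid and lipid genes that passed lie outside all of these intervals. Whether the genes differ from each other was not tested. Without XY FOXL2+ replicate 2, however, Lpin1 was called higher (0.48, adjusted p = 0.0467).

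**Figure D2:**
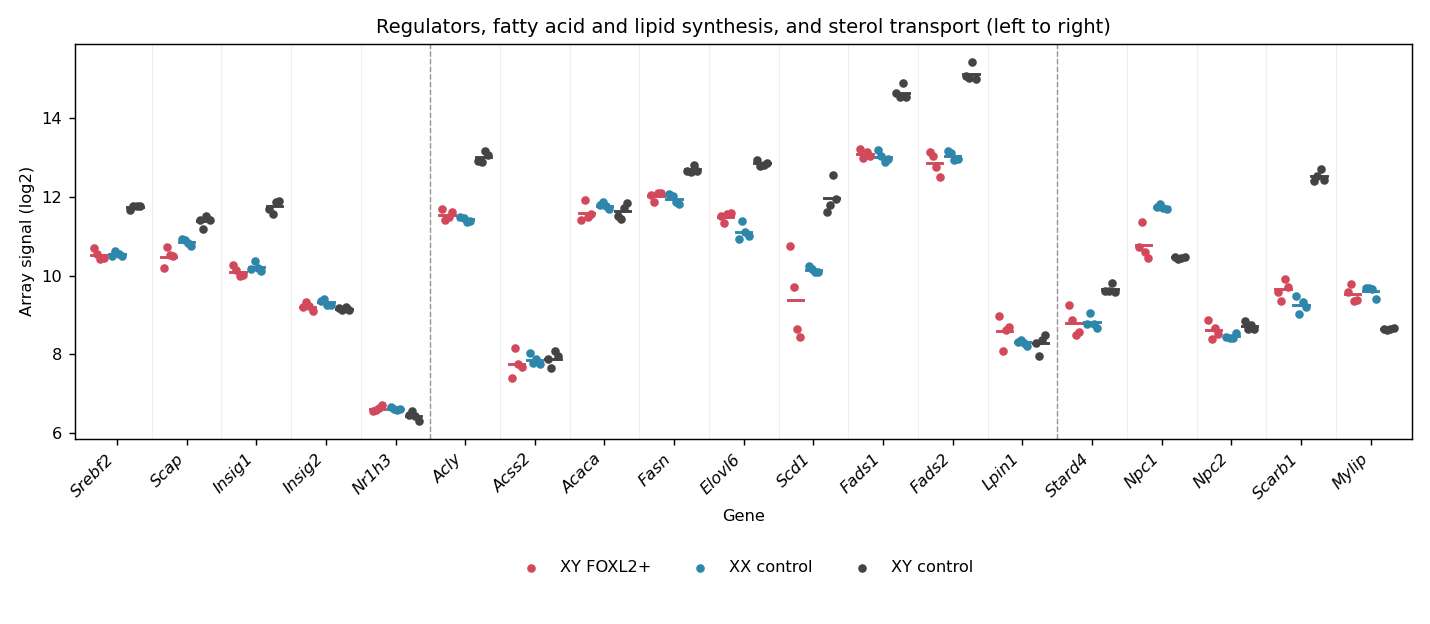
Array signal (log2, vertical axis) of 5 regulators, 9 genes of fatty acid and lipid synthesis and 5 genes of sterol transport and storage, separated by dashed lines, with 4 arrays a group as points and means as bars. Scarb1 is low and Mylip high in XY FOXL2+ and XX control arrays, and Npc1 is high in XX control arrays.

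Genes of sterol transport moved in both directions. Scarb1, the HDL receptor that brings cholesteryl esters into steroid-making cells, read 9.59, 9.36, 9.92 and 9.72 in XY FOXL2+ gonads, 9.49, 9.02, 9.33 and 9.21 in XX control gonads, and 12.41, 12.52, 12.72 and 12.43 in XY control gonads. It fell by 2.87 on the log2 scale (SE 0.13, adjusted p = 7.52e-08), 7.32-fold lower, with no overlap between XY FOXL2+ and XY control. Mylip, also called IDOL and induced by liver X receptors, a ubiquitin ligase that limits sterol uptake, read 9.57, 9.78, 9.36 and 9.37 in XY FOXL2+ gonads, 9.69, 9.69, 9.65 and 9.40 in XX control gonads, and 8.65, 8.61, 8.64 and 8.68 in XY control gonads. It was the 1 gene of the 36 that rose, by 0.87 (SE 0.11, adjusted p = 0.000253), and every XY FOXL2+ and XX array was above every XY control array. Stard4, a cytosolic sterol carrier, read 9.26, 8.86, 8.49 and 8.57 in XY FOXL2+ gonads, 8.76, 9.04, 8.77 and 8.68 in XX control gonads, and 9.60, 9.60, 9.81 and 9.58 in XY control gonads. XY FOXL2+ was below XY control on every array, with a change of -0.86 (SE 0.15, adjusted p = 0.00406). Npc1 and Npc2, which pass sterol out of lysosomes, did not pass, with changes of 0.33 (SE 0.15, adjusted p = 0.263) and -0.11 (SE 0.10, adjusted p = 0.628).

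The sex difference gave the same count of lower genes. Of the 36 genes 27 were lower and 2 higher in XX control than in XY control gonads, against 10.2% and 7.17% of all clusters (17.4% in either direction). On 28 genes every XX control array lay below every XY control array and on 4 above, against 14.8% and 10.5% of all clusters. Of the sterol synthesis enzymes 16 of 17 were lower, with a median of -1.64, where the median of all clusters was -0.033. The largest falls among these enzymes were in Lss (-2.91), Msmo1 (-2.53) and Fdps (-2.44), with adjusted p of 1.02e-07, 1.99e-08 and 1.66e-06. Scarb1 differed by -3.25 (SE 0.13, adjusted p = 1.66e-08), 9.54-fold lower in XX control. Srebf2 (-1.20, adjusted p = 1.63e-06), Insig1 (-1.55, 9.68e-07) and Scap (-0.53, 0.00575) were lower as well. Of 9 fatty acid and lipid genes 6 were lower, with a median of -1.59, and Acaca (0.14, 0.551), Acss2 (-0.03, 0.941) and Lpin1 (0.02, 0.962) did not pass. Mylip (0.96, 4.67e-05) and Npc1 were the 2 genes higher in XX. Npc1 read 11.74, 11.81, 11.71 and 11.68 in XX control gonads against 10.47, 10.43, 10.44 and 10.48 in XY control gonads, with no overlap, a difference of 1.28 (SE 0.15, adjusted p = 8.6e-05). The comparison with XY FOXL2+ gonads uses the same XY control arrays, so the values of both comparisons are shown side by side in the plot of differences by role.

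**Figure D3:**
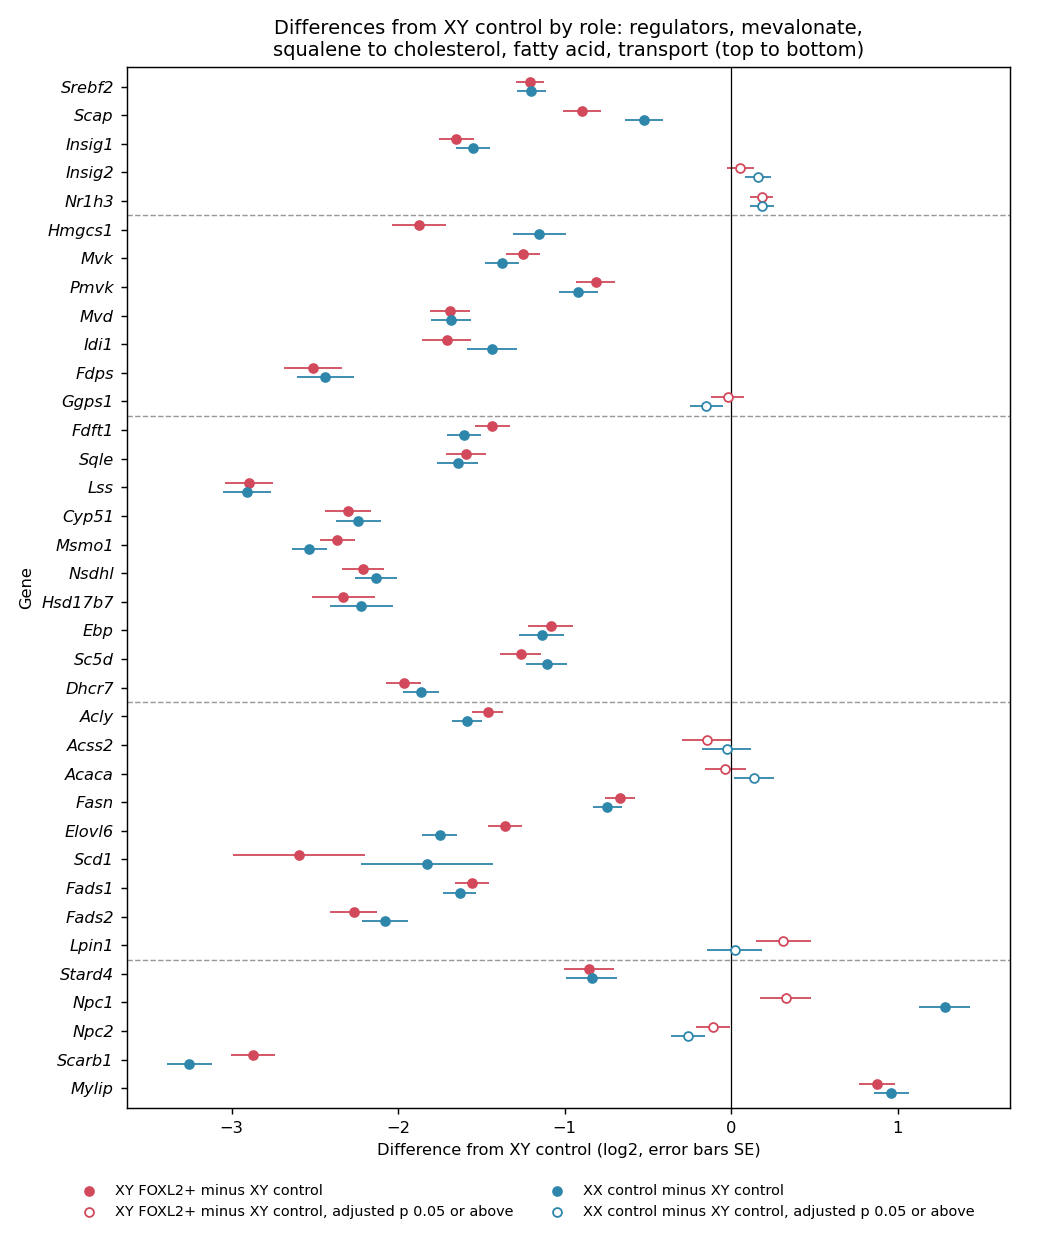
Difference from XY control (log2, horizontal axis, error bars SE) of 36 genes for XY FOXL2+ (upper point of each row) and XX control (lower point), 4 arrays a group. Filled points passed at an adjusted p under 0.05, and both comparisons share the XY control arrays.

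Set against XX control gonads directly, XY FOXL2+ gonads differed in 3 of the 36 genes. Hmgcs1 and Npc1 were lower and Elovl6 was higher, where 2.64% and 2.87% of all clusters were called lower and higher, 5.51% in all. The median difference was -0.01 over the 36 genes and 0.032 over all clusters. On 3 genes every XY FOXL2+ array lay below every XX control array and on 1 above, against 4.82% and 6.63% of all clusters. Npc1 read 10.72, 11.36, 10.61 and 10.44 in XY FOXL2+ gonads, against 11.74, 11.81, 11.71 and 11.68 in XX control gonads. All XY FOXL2+ arrays were below all XX arrays, replicate 4 lay within the XY control range and replicate 2 was the highest of its group, and the difference was -0.95 (SE 0.15, adjusted p = 0.00345). The difference of Hmgcs1, whose groups did not overlap, was -0.72 (SE 0.16, adjusted p = 0.0197), and it did not pass with only these groups in the fit (adjusted p = 0.0724) or without XY FOXL2+ replicates 3 (0.059) or 4 (0.0653) or XX control replicate 2 (0.0687). Elovl6 read 11.51, 11.33, 11.56 and 11.60 in XY FOXL2+ gonads, against 10.94, 11.38, 11.10 and 11.01 in XX control gonads. The ranges of Elovl6 overlapped, its difference was 0.39 (SE 0.10, adjusted p = 0.0482), and it passed without XY FOXL2+ replicate 2 or XX control replicate 2 and in no other fit that left out 1 array, with adjusted p up to 0.139.

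For the other 16 sterol synthesis enzymes the differences between XY FOXL2+ and XX control ran from -0.27 (Idi1) to 0.17 (Fdft1), and their 95% intervals lay between -0.59 and 0.40. Lss differed by 0.01 with an interval of -0.30 to 0.32, Dhcr7 by -0.10 with -0.33 to 0.13, and Srebf2 by -0.01 with -0.19 to 0.17. The falls from XY control, the smallest of them -0.81 in Pmvk, lie outside these intervals, while smaller differences do not. The widest interval was that of Scd1 (-1.63 to 0.09, difference -0.77). It was called lower without XY FOXL2+ replicate 1 (-1.22, adjusted p = 0.0207) and with array weights (-1.20, adjusted p = 0.0268). Scap (-0.37, adjusted p = 0.0866) and Scarb1 (0.38, 0.133) were called without XY FOXL2+ replicate 2, at 0.024 and 0.038, and Lpin1 (0.29, 0.374) at 0.0418. With array weights Scap and Scarb1 were called as well, at 0.0431 and 0.0366, and Scap also among clusters above the median signal, at 0.0499.

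**Figure D4:**
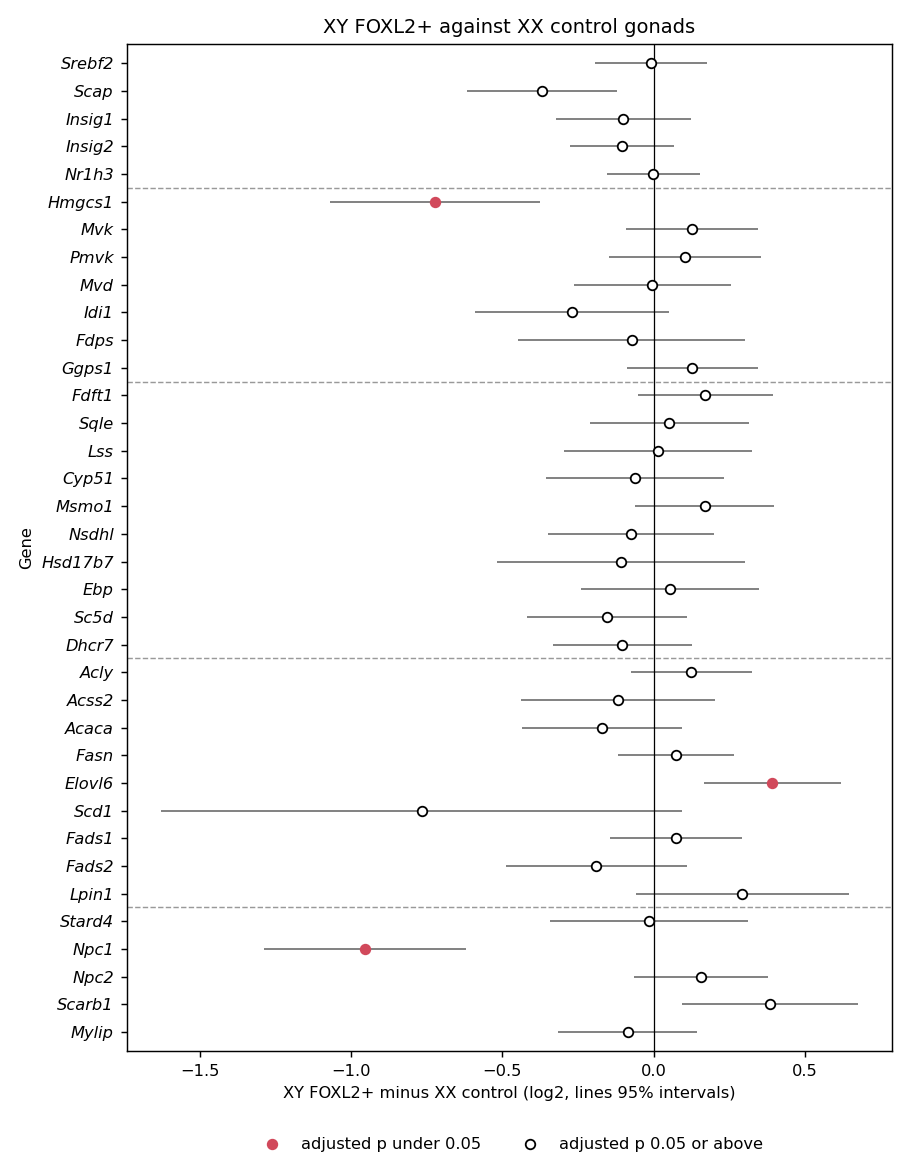
Difference between XY FOXL2+ and XX control gonads (log2, horizontal axis) for 36 genes, with 95% intervals as lines and 4 arrays a group. Filled points, Hmgcs1, Elovl6 and Npc1, passed at an adjusted p under 0.05.

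The XY FOXL2+ arrays differed among themselves. The mean of the 17 sterol synthesis enzymes, as a difference from the XY control mean, was -1.51, -1.68, -1.87 and -1.84 on XY FOXL2+ replicates 1 to 4, -1.70, -1.58, -1.71 and -1.72 on XX control arrays, and -0.04, -0.15, 0.18 and 0.01 on XY control arrays. XY FOXL2+ replicates 3 and 4 were the lowest of all 12 arrays. The mean of the 9 fatty acid and lipid genes was -0.89, -1.06, -1.17 and -1.21 on XY FOXL2+ arrays, -0.99, -0.99, -1.10 and -1.14 on XX control arrays, and -0.06, -0.16, 0.19 and 0.03 on XY control arrays. Here too replicates 3 and 4 of XY FOXL2+ were the lowest, though only narrowly below XX control. Of the 9 genes, only Scd1 and Fads2 were themselves lowest on both of these replicates. Scd1 read 8.63 and 8.45 there, against 10.10 to 10.25 in XX control. Fasn and Elovl6 read higher on these replicates than on any XX control array. The median SD of the 17 enzymes within a group was 0.232 in XY FOXL2+, 0.117 in XX control and 0.196 in XY control, against 0.163, 0.116 and 0.131 over all clusters in the same order.

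Fetal Leydig cell markers fell as well but stood in another order among the XY FOXL2+ arrays. The mean of Cyp11a1, Cyp17a1, Star and Hsd3b1, enzymes and a carrier of steroid synthesis, was -7.29, -8.04, -4.86 and -4.77 on XY FOXL2+ arrays, -7.88, -8.06, -8.11 and -8.00 on XX control arrays, and -0.02, -0.17, 0.23 and -0.04 on XY control arrays. Replicates 3 and 4, the lowest in sterol enzymes, were thus the highest of their group in Leydig markers, a pattern of 4 arrays that was not tested. The XY FOXL2+ arrays differed in other ways too. Array weights, which are low for arrays that scatter more around their group, were lowest of the 12 arrays on replicates 1 and 2. They were 0.296 and 0.506 there, against 1.12 and 1.18 on replicates 3 and 4. The germ cell marker mean was -1.28 on replicate 1 and -0.44, -0.20 and -0.01 on replicates 2 to 4. The Sertoli marker mean was -2.54, -3.62, -1.46 and -1.73 on XY FOXL2+ replicates 1 to 4. The granulosa marker mean, which includes Foxl2, was 1.93, 2.73, 0.72 and 0.64, and Foxl2 itself was lowest on replicates 3 and 4. Cyp11a1 read 7.69, 6.26, 10.68 and 10.92 on the XY FOXL2+ arrays, against 6.31, 6.27, 6.29 and 6.32 on the XX control arrays. Star, the carrier, was called higher in XY FOXL2+ than in XX control (0.67, adjusted p = 0.0489), whereas Cyp11a1 (2.59, 0.0817), Cyp17a1 (2.62, 0.134) and Hsd3b1 (1.20, 0.207) did not pass. Cyp11a1 lay at the level of silent genes in XX control gonads, so its differences from that group, and the Leydig means there, are bounded by background.

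Other cell type markers moved with the groups too. For the counts below, 4.67% of all clusters were called lower and 2.46% higher in XY FOXL2+ against XY control. All 4 Leydig markers and all 5 Sertoli cell markers fell in XY FOXL2+ against XY control, as did all 4 adrenal cortex markers, whose mean level ran from 5.60 to 5.84 in XY FOXL2+ and from 7.36 to 7.51 in XY control, the XY FOXL2+ level being below that of silent genes. The mean Leydig level ran from 7.91 to 11.17 in XY FOXL2+ and from 15.78 to 16.17 in XY control, and the mean Sertoli level from 7.55 to 9.71 and from 10.95 to 11.36 in the same order. Of 5 fetal granulosa markers 2 rose and 3 did not pass. Those that rose were Fst (2.80, limma adjusted p = 0.00523) and Foxl2, which the cross itself switches on. The mean of the 5 markers, Foxl2 included, ran from 8.24 to 10.32 in XY FOXL2+ and from 7.57 to 7.62 in XY control. Of 5 macrophage markers 4 rose, with means of 7.50 to 7.58 against 6.95 to 7.23, and of 5 germ cell markers none passed (limma, 2 at an unadjusted p under 0.05), with means of 11.40 to 12.67 against 12.40 to 13.06. Of 5 endothelial markers 1 rose and of 4 mesonephric tubule markers 1 fell. The part of these cell types in the sterol and lipid changes was not tested.

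**Figure D5:**
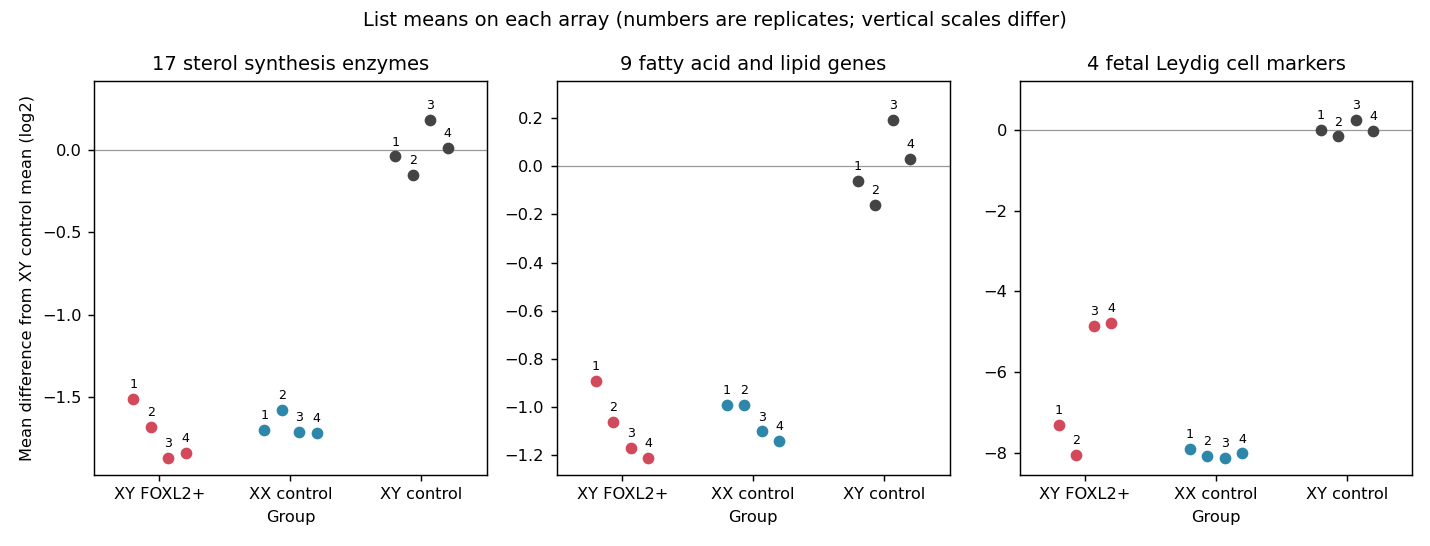
Mean difference from the XY control mean (log2, vertical axis) on each of 12 arrays for 17 sterol synthesis enzymes, 9 fatty acid and lipid genes and 4 fetal Leydig cell markers, by group, with replicate numbers beside the points. XY FOXL2+ replicates 3 and 4 are lowest in the sterol panel and highest of their group in the Leydig panel.

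Neighbouring pathways were read from further lists. None of 8 measured genes of the isoprenoid branch, which turns farnesyl diphosphate into ubiquinone, dolichol and protein prenyl groups, passed in XY FOXL2+ against XY control (limma, 0 at an unadjusted p under 0.05), with changes of -0.16 to 0.11 and a median of 0.04. In this comparison 7.12% of all clusters were called, 4.67% lower and 2.46% higher, so 0 of 8 is near that share. Of 9 fatty acid oxidation genes 1 fell (Acadm, -0.69, adjusted p = 0.0018) and 1 rose (Acadvl, 0.41, 0.0452). Both encode dehydrogenases of mitochondrial beta-oxidation, and the median of that list was -0.04. In XX control, 4 of these 9 genes were higher and 1 lower than in XY control, against 7.17% and 10.2% of all clusters. Set against XX control, 4 of the 9 were lower in XY FOXL2+ and 0 higher, against 2.64% and 2.87% of all clusters. Of 13 further genes of fatty acid and glyceride synthesis 3 fell and 1 rose, led by malic enzyme Me1, a source of NADPH (-1.79, 3.37e-05), and the elongase Elovl5 (-0.87, 3.42e-05). The acyltransferase Gpam (-0.52, 0.0452) also fell, and the acetyl-CoA carboxylase Acacb (0.53, 0.0497) rose, from a signal near background in XY control (6.68). Set against XX control, Me1 was the 1 gene of the 13 higher in XY FOXL2+ (0.96, limma adjusted p = 0.00605), and 2 were lower.

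Of 11 further genes of sterol efflux, transport and storage 5 fell and 1 rose, against 4.67% and 2.46% of all clusters. Plin2, which coats lipid droplets, read 11.88, 12.08, 11.24 and 11.40 in XY FOXL2+ gonads, 12.23, 11.97, 11.94 and 12.12 in XX control gonads and 10.39, 10.53, 10.39 and 10.37 in XY control gonads. It was higher than in XY control on every XY FOXL2+ and XX array, by 1.23 (SE 0.16, adjusted p = 0.000416) in XY FOXL2+. Abcg1, a sterol exporter and liver X receptor target (-0.95, 1.23e-05), Nceh1, a cholesteryl ester hydrolase (-0.61, 0.000596), Lcat, which esterifies cholesterol in plasma (-0.50, 0.0321), and Lipe, the hormone-sensitive lipase (-0.41, 0.0107), were among those that fell, whereas Abca1, another exporter and target of these receptors, did not pass (0.08, 0.811). Plin1, another droplet coat protein, which was listed as a fat cell marker, fell by 1.24 (adjusted p = 3.03e-05). Lcat, Nceh1 and Plin1 averaged 6.52, 6.85 and 6.75 in XY FOXL2+ gonads, near background like Ebp, so their changes are minima. Mbtps1, the first protease of SREBP release, did not pass (-0.23, 0.107). Of 6 housekeeping genes 5 did not pass, among them Actb (-0.15, 0.4) and Gapdh (-0.07, 0.688), and Hprt rose (1.22, 0.00398).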

How the data were processed

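RNA of 12 fetal gonad samples, 4 a group, was read on 1-colour arrays from 100 ng of total RNA. The deposited values are log2 signals made by the authors. Their background correction, summarization, normalization and genome build were not stated in the labels or headers used here, and the base was taken as 2 because values run from 2.60 to 19.49. Of 72688 rows 6732 control rows were left out and 65956 clusters tested with no filter on low signal. Clusters were named where the platform annotation, with old symbols updated through RefSeq, gives 1 gene (31258 clusters; 1492 have several and 33206 none). A gene with several clusters was represented by that with the highest mean.

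Groups were compared in R 4.3.3 with limma 3.58.1 (lmFit, eBayes with trend) on the 12 arrays together, which left 9 residual degrees of freedom. Two-sided p-values were adjusted by Benjamini-Hochberg over all clusters (threshold 0.05). The fit was tested on simulated data. The labels call each gonad pair a biological replicate and give no litter or day, so a batch could not be checked. Genes given array by array were the 3 largest changes of each role and all regulators. From further lists at most 5 genes that passed were named by size, and genes outside this rule (Npc1, Elovl6, Foxl2, Cyp11a1 and Plin2 array by array, Abca1, Lbr, Mbtps1, Actb, Gapdh) were chosen after their values were seen. The genes and lists were chosen with earlier results of these data known, so no count over them is independent evidence. The number of arrays limits the precision. Alternatives were another scaling, filter, variance model, cluster choice or set of groups, array weights, a replicate block and leaving out each array.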

Additional observations from a re-analysis of the deposited data

Results flagged for a closer look

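In 108 sets of 4 arrays (36 genes in 3 groups), 4 held an array whose gap to its nearest neighbour exceeded the 95% critical value of Dixon's test. Chance flags about 1 in 20 sets, so 4 is no more than chance gives. Pmvk read 8.91 on XY FOXL2+ replicate 1 and 8.38 to 8.41 on the others of that group. Hmgcs1 read 14.30 on XX control replicate 2 against 14.04 to 14.05, Mylip 9.40 on XX control replicate 4 against 9.65 to 9.69, and Stard4 9.81 on XY control replicate 3 against 9.58 to 9.60.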

How the results depend on the processing

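Under 9 alternative settings and 12 fits that each left out 1 array, the number of genes lower in XY FOXL2+ than in XY control was 27 in every one except 26 with the lower-signal cluster for each gene, where Scd1 lost its call (-0.59, adjusted p = 0.229), and 26 to 28 genes were lower in XX control than in XY control (28 with array weights, with only the groups compared and without XY FOXL2+ replicate 1, when Npc2 passed at 0.0172, 0.0224 and 0.0363). The 2 genes higher in XX control became 3 after quantile normalization, median centring or array weights, when Nr1h3 passed at 0.0202, 0.0244 and 0.0343. The count higher in XY FOXL2+ than in XY control was 1 to 2 without single arrays (2 without XY FOXL2+ replicate 2). Against XX control, the 2 lower genes became 3 among clusters above the median signal, 4 with array weights, 1 with only the groups compared, and 1 to 3 without single arrays. The 1 higher gene became 0 with median centring, 2 with array weights, 0 with only the groups compared and 0 to 3 without single arrays. With the replicate number as a block (replicate block) it became 0, as Elovl6 lost its call (adjusted p = 0.102), and no other call among the 36 genes changed in this fit. Samples of the same number did not deviate together (correlations from -0.091 to 0.179), so the numbers were not taken as pairs.

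Genes that passed in XY FOXL2+ or XX control against XY control kept direction and call throughout, apart from Scd1. Its call was lost only with its lower-signal cluster, which averaged 5.01, below the level of silent genes. Signs turned only in differences that were not called, the largest of them Scd1 against XX control (-0.77). Against XY control, for XY FOXL2+ Ggps1 was 0.078 after quantile normalization, 0.012 with array weights and -0.052 to 0.026 without single arrays, and Acaca 0.018 after quantile normalization and -0.144 to 0.037. For XX control, Acss2 was 0.065 after quantile normalization, 0.028 with median centring and -0.107 to 0.038 without single arrays, and Lpin1 -0.023 with array weights and -0.087 to 0.088. For XY FOXL2+ against XX control, Srebf2 was 0.017 after quantile normalization, Lss -0.037 with median centring and -0.082 with array weights, Nr1h3 0.026, Sqle -0.042 and Ebp -0.016 with array weights, and Scd1 0.008 with its lower-signal cluster. Without single arrays these ran from -0.07 to 0.029 (Srebf2), -0.027 to 0.018 (Nr1h3), -0.027 to 0.15 (Pmvk), -0.077 to 0.069 (Mvd), -0.225 to 0.039 (Fdps), -0.066 to 0.114 (Sqle), -0.086 to 0.095 (Lss), -0.176 to 0.04 (Cyp51), -0.266 to 0.035 (Hsd17b7), -0.082 to 0.126 (Ebp), -0.26 to 0.001 (Acss2) and -0.171 to 0.086 (Stard4). The cause of these shifts was not tested.

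Over the whole array, the calls in XY FOXL2+ against XY control were 1621 upward and 3077 downward, but 2184 and 2656 after quantile normalization, 809 and 1891 with only these groups, and 998 and 1051 upward without XY control replicates 3 and 4. For XX control against XY control the counts were 4727 and 6732, and 6116 and 5385 after quantile normalization and 5782 and 5575 after median centring. For XY FOXL2+ against XX control they were 1891 and 1744, with 1540 and 2172 after median centring, 3668 and 3084 with array weights and 944 and 972 with only these groups. Without XY FOXL2+ replicate 2 they were 2967 and 3025, and without XY FOXL2+ replicate 3 or 4 or XX control replicate 2, 3 or 4 they ran from 980 to 1142 and from 1032 to 1132. Signals near 6 or below cannot be told from background, which limits Nr1h3 and Ebp among the 36 genes, and Foxl2 in XY control, Cyp11a1 in XX control and the adrenal markers outside them. The same limit holds for Lcat, Nceh1 and Plin1 in XY FOXL2+. It also holds for Acacb and the macrophage markers Adgre1 and C1qa in XY control, which averaged 6.68, 6.65 and 6.44.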
